A study of Homo sapiens with 14 samples.

Results

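The splice events of 10 genes for heterogeneous nuclear ribonucleoproteins (hnRNPs), HNRNPA1, HNRNPA2B1, HNRNPC, HNRNPD, HNRNPDL, HNRNPH1, HNRNPH3, HNRNPK, HNRNPM and HNRNPR, were compared between SF3B1-MT and -WT HEK293T cells. The members are the events of these genes in the deposited junction table with a mean of at least 10 junction reads per library, 211 of the 114349 events listed. They were chosen by gene and by reads, not by a difference between genotypes. RNA-Seq of total RNA came from HEK293T, a human embryonic kidney line, in 3 WT libraries (SF3B1 K700K) and 3 MT libraries (SF3B1 K700E) of an isogenic line, and no source used here states separate clones for the libraries, so their spread, which is what the p-values measure, may be technical. For MT the table holds 6 listed values of each event against 3 MT libraries in the study, and which sample each belongs to is not given. The 3 with a column of their own, listed as values 1, 2 and 6, are called MT 1, MT 2 and MT 3 here. DRIP-seq, which captures DNA:RNA hybrids, came from Nalm-6, a human leukemic B cell line with the same 2 genotypes, in 2 untreated and 2 RNaseH1-treated libraries of each.

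SF3B1 is the part of the U2 snRNP that holds the branch point of the intron, and K700E is a hotspot substitution known for the use of cryptic 3′ splice sites a short way upstream of the normal one. The hnRNPs are abundant nuclear proteins that bind nascent transcripts and take part in the choice of splice sites, in export and in mRNA stability. Most of them are made as several isoforms by alternative splicing of their own transcripts, and members of the family are known to hold their own level by exons or introns that send the transcript to nonsense-mediated decay.

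The inclusion level of an event is the fraction, from 0 to 1, of the transcripts it compares that hold the alternative exon, exon part or intron. It is estimated from junction reads per length of each form. Only the forms that the event compares are weighed, so an exon can have other levels with other neighbouring exons. Reads of the junction that leaves a cassette exon out are called skipping reads here. The segments the comparison turns on are shown here because their inclusion separates the known isoforms or because their levels stood apart between genotypes, and that of HNRNPK because it is its coding exon at an intermediate level. They were read from the reference genome (GRCh38) on the gene's strand, 5′ to 3′, with the alternative segment in capitals and its neighbouring bases in lower case. Each border of each segment is an exon border of the annotation (GENCODE 44).

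The 36-base exon of HNRNPA2B1 at chr7:26197831-26197866 (− strand), coding in 2 annotated transcripts, is present in isoform B1 and absent from A2.
HNRNPA2B1 B1 exon: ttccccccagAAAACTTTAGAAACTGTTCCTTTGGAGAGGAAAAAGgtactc
The 39-base segment of HNRNPC at chr14:21230958-21230996 (− strand) lies between alternative 5′ splice sites and is present in isoform C2 and absent from C1, and both sites are followed by GT.
HNRNPC C2 segment: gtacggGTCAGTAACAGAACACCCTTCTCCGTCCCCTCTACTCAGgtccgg
The coding exons of HNRNPD, an N-terminal one of 57 bases at chr4:82371528-82371584 and a longer C-terminal one at chr4:82356537-82356683 (− strand), combine into the AUF1 isoforms p37 (neither), p40 (the shorter alone), p42 (the longer alone) and p45 (both).
HNRNPD N-terminal exon: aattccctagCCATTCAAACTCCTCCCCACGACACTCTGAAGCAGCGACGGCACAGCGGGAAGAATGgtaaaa
HNRNPD C-terminal exon: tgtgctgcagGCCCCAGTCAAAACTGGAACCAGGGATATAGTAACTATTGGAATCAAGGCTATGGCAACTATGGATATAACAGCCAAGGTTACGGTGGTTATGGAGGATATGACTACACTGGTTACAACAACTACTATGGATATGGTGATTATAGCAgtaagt
The intron of HNRNPM at chr19:8465363-8465479 (+ strand) begins with GT and ends with AG, and it is coding sequence in 2 annotated transcripts, so that its removal shortens the protein in frame.
HNRNPM intron: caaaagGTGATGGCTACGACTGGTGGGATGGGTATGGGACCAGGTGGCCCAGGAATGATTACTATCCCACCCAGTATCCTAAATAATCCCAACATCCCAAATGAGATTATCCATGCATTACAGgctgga
The 9-base segment of HNRNPR at chr1:23318689-23318697 (− strand) lies between alternative 3′ splice sites in coding sequence. The inner site is preceded by AG, and the outer one by TG in the reference.
HNRNPR segment of 9 bases: tatatctggctgttgGTTTAACAGagggtt
The 23-base segment of HNRNPH1 at chr5:179623165-179623187 (− strand) lies between alternative 3′ splice sites in no annotated coding sequence, and both sites are preceded by AG.
HNRNPH1 segment of 23 bases: tcagTTCTGGTCCTCCCCGCTTTGCAGttt
The 72-base coding exon of HNRNPK is at chr9:83973902-83973973 (− strand).
HNRNPK exon of 72 bases: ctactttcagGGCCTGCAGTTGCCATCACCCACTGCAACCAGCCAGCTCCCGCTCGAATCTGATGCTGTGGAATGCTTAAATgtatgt

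Of the 211 events, 27 had the same level in all 6 libraries, 25 of them at 1 and 2 at 0, and 184 were tested by limma after an arcsine square root transform, with Benjamini-Hochberg adjustment over the 83581 events tested in all genes. An event was called when its adjusted p was under 0.05 and the levels differed by more than 0.1, which held for 26 events of all genes (0.0311%, with 0.0132% higher in MT). None of the 184 hnRNP events was called, and their lowest adjusted p by limma was 0.747. With a logit transform in its place 0 were called too, with 9 (4.89%) at an unadjusted p under 0.05, where 4.26% of all tested events had one. With the arcsine transform and without adjustment 7 of the 184 hnRNP events (3.8%) had a p under 0.05, where 4.47% of all tested events did. In 9 of the 184 events (4.89%) the 3 MT libraries did not overlap the 3 WT libraries, with 8 lower and 1 higher in MT, where the libraries of 5.46% of all tested events did not overlap, 2.32% being higher in MT. Both shares were near those of all events.

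The hnRNP genes were deeply covered. The 184 events had a median of 1058.2 junction reads per library, and all tested events a median of 82.4. The median size of the difference was 0.0028 in the hnRNP events and 0.0137 in all tested events. In the 5614 tested events of all genes with at least 500 reads it was 0.0017, smaller than in the hnRNP events. The median difference, MT minus WT, was −0.00067 in the hnRNP events and −0.002 in all tested events. A difference is smaller near a level of 0 or 1, where 118 of the 184 events were. The 66 events with a mean WT level from 0.05 to 0.95 had more room to change. Those nearest 0.05 or 0.95 could still change by more than 0.1 in 1 direction only. The 95% interval of the difference lay within 0.1 of 0 in 168 of the 184 events (91.3%) and in 68.7% of all tested events. Of all tested events with at least 500 reads, 96.3% had such an interval. Among the 66 hnRNP events at intermediate levels, 51 had such an interval. In 62 of these 66 the interval included 0. In the other 15 of the 66 a difference of 0.1 was not outside the interval at this depth. Of the 48 hnRNP events with a mean WT level from 0.1 to 0.9, 33 (68.8%) had an interval within 0.1 of 0. At those levels 11.3% of all tested events did, and 81.8% of those with at least 500 reads.

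**Figure D1:**
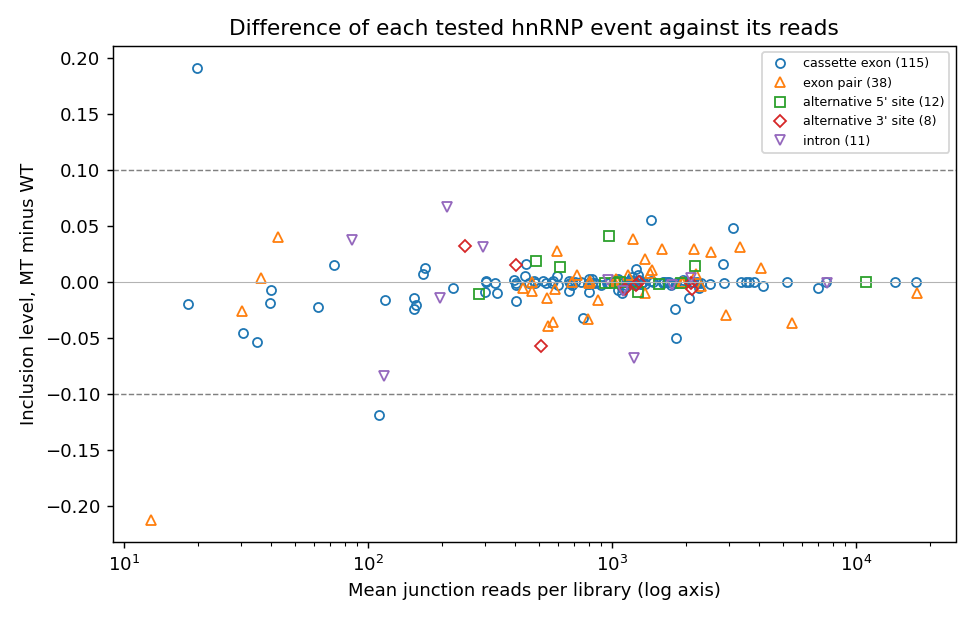
Difference in mean inclusion level, MT minus WT (vertical axis, fraction), against mean junction reads per library (horizontal log axis) for the 184 tested hnRNP events by type, with dashed lines at differences of 0.1. The 3 events beyond the lines had 12.9, 19.9 and 110.6 reads, and all others lie between the lines.

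Of the 184 events, 3 differed by more than 0.1, as did 5.8% of all tested events, and the 3 had from 12.9 to 110.6 reads. A 163-base exon of the HNRNPC 5′ region (19.9 reads) had levels of 0.360, 0.122 and 0.167 in WT against 0.391, 0.273 and 0.556 in MT. With other neighbouring exons and 1201.6 reads the same exon had means of 0.054 in WT and 0.058 in MT, a difference of 0.0047. A pair of HNRNPC exons (12.9 reads) was at 1 in 5 libraries and at 0.364 in MT 3. The third was a 136-base noncoding exon of HNRNPA2B1 (chr7:26190993-26191128, 110.6 reads), with 0.727, 0.813 and 0.764 in WT against 0.370, 0.676 and 0.901 in MT. The MT libraries lay on both sides of WT, the difference was −0.119 (95% interval −0.27 to 0.068), and without MT 1 it was 0.021.

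Over the 184 events the mean size of the difference between 2 libraries of the same genotype ranged from 0.0191 to 0.0348 (6 pairs, median 0.0247), and between a WT and an MT library from 0.0141 to 0.0323 (9 pairs, median 0.0238). The ranges overlapped, and the nearest pairs of all 15 were WT 2 with MT 2 (0.0141) and WT 1 with MT 1 (0.0156), each across genotypes and below all pairs within a genotype. Both pairs share a column number, and their deviations from the group mean correlated at 0.426 and 0.418 over these events. Whether an effect shared by number widens the distances within a genotype was not tested, so the overlap does not measure genotype alone. MT 3 was the farthest library from the others of its genotype.

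**Figure D2:**
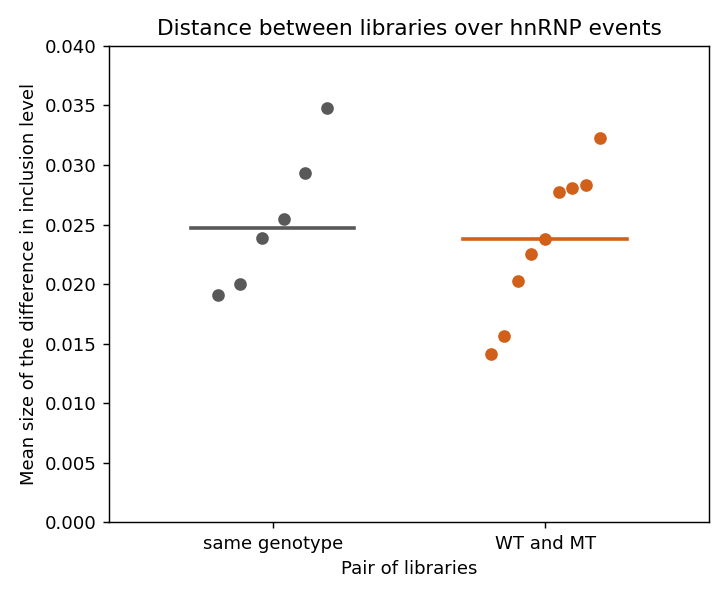
Mean size of the difference in inclusion level over 184 hnRNP events (vertical axis, fraction) for each pair of the 6 libraries, with a line at the median of each kind of pair. The 9 pairs of a WT and an MT library lie from 0.0141 to 0.0323 and the 6 pairs within a genotype from 0.0191 to 0.0348.

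Among the events that make known isoforms, the lowest p was found in HNRNPD. HNRNPD (AUF1) binds AU-rich elements in the 3′ UTR of short-lived mRNAs. Its 57-base exon was at 0.783, 0.829 and 0.814 in WT and at 0.824, 0.883 and 0.884 in MT (1439.4 reads). The lowest MT library was below the highest WT library, so the groups overlapped. The mean was 0.809 ± 0.024 (SD, n = 3) in WT against 0.864 ± 0.034 (SD, n = 3) in MT, a difference of 0.055 (95% interval 0.018 to 0.093). Its adjusted p by limma was 0.747, the lowest of the 184 events. With 3 other pairs of neighbouring exons, at 402.4 to 458.3 reads, the same exon had means of 0.999 to 1 in WT and 0.998 to 0.999 in MT. Skipping reads of those pairs averaged from 0 to 0.33 in WT, against 170 for the pair above. Those levels therefore show junctions that were hardly used and do not bear on the difference of 0.055. The longer exon of HNRNPD, which adds to the C-terminal part of the protein, was at 0.557, 0.452 and 0.554 in WT and at 0.531, 0.376 and 0.507 in MT. The ranges overlapped, and the difference was −0.050 (95% interval −0.11 to 0.014) with an adjusted p by limma of 0.856. A 332-base exon of HNRNPD (154.4 reads) had all MT libraries below WT, with 1.000, 0.989 and 1.000 in WT against 0.985, 0.948 and 0.985 in MT. Its skipping reads averaged 0.33 in WT and 1.33 in MT, so this separation rests on very few reads.

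HNRNPM, which binds GU-rich sequences, had the largest difference among the events whose libraries did not overlap. The level of the intron shown above was 0.610, 0.639 and 0.637 in WT against 0.563, 0.530 and 0.590 in MT (1224.5 reads). All 3 MT libraries were below all 3 WT libraries. The mean was 0.629 ± 0.016 (SD, n = 3) in WT against 0.561 ± 0.030 (SD, n = 3) in MT, a difference of −0.068 (95% interval −0.11 to −0.021), and the adjusted p by limma was 0.80. The authors' mean over all 6 listed MT values, of which only 3 have a column of their own, was 0.588, so the difference to WT was smaller there (−0.041). The 54-base exon further downstream in HNRNPM was at 0.871, 0.799 and 0.878 in WT and at 0.842, 0.815 and 0.867 in MT, and its difference was −0.0080 (95% interval −0.056 to 0.038). A 78-base exon of HNRNPM had levels from 0.996 to 1 in WT and from 0.957 to 0.993 in MT, a difference of −0.017 (405.2 reads). Skipping reads averaged 0.67 in WT and 2.33 in MT, so this separation too rests on very few reads. With other neighbouring exons the 78-base exon was at 1 in all MT libraries, and the differences were 0.0013 (396.2 reads) and 0.015 (72.8 reads), so the direction was not the same. Skipping reads there averaged 0.33 and 1 in WT.

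HNRNPR, a relative of SYNCRIP that binds mRNA in neurons and other cells, had the next separated event. The longer form of its 9-base 3′ site pair was at 0.167, 0.156 and 0.219 in WT and at 0.128, 0.131 and 0.113 in MT (513.2 reads). The MT libraries were all lower, with means of 0.181 ± 0.034 and 0.124 ± 0.0096 (SD, n = 3 each), a difference of −0.057 (95% interval −0.10 to −0.0094), and an adjusted p by limma of 0.856. The authors' mean over 6 listed MT values was 0.113. The outer site, preceded by TG, is the one with the lower level in MT. An exon pair of HNRNPR in which the second exon begins at the same outer site was also separated, at 0.086, 0.092 and 0.127 in WT and at 0.081, 0.080 and 0.046 in MT, and the events share that exon. The 5′ exon of 166 bases in HNRNPR overlaps coding sequence in 5 annotated transcripts but lies wholly inside it in none. It was at 0.268, 0.392 and 0.335 in WT and at 0.337, 0.385 and 0.321 in MT, so the ranges overlapped.

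HNRNPA2B1, the reader of an RNA sorting sequence and a partner of HNRNPA1 in splicing, was measured at its B1 exon with 3128.4 reads. The levels were 0.338, 0.340 and 0.359 in WT against 0.390, 0.317 and 0.473 in MT. The WT libraries were close together, and the MT libraries lay on both sides of them. The difference was 0.048 (95% interval −0.0033 to 0.097), with an adjusted p by limma of 0.856, and the SD was 0.012 in WT and 0.078 in MT (n = 3 each). Without MT 3 it was 0.0078. A 120-base exon of HNRNPA2B1 was lower in all MT libraries, from 0.995 to 0.992 in the mean.

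HNRNPA1, the best-known antagonist of SR proteins at 5′ splice sites, was mostly without the exon that lengthens its tail. That exon was at 0.027, 0.042 and 0.047 in WT and at 0.028, 0.033 and 0.038 in MT with 6994.8 reads, and the difference was −0.0057 (95% interval −0.016 to 0.0057). The 292-base intron upstream (chr12:54281503-54281794) was at 0.038, 0.036 and 0.035 in WT and at 0.042, 0.033 and 0.032 in MT. Both differences were smaller than 0.01, and all 7 tested events of HNRNPA1 had intervals within 0.1 of 0.

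HNRNPC, which forms tetramers on pre-mRNA and binds runs of U near 3′ splice sites, had C2 levels of 0.218, 0.217 and 0.272 in WT against 0.260, 0.220 and 0.270 in MT (2190.2 reads). The ranges overlapped and the difference was 0.014 (95% interval −0.023 to 0.052). At a pair of 3′ sites 3 bases apart, both preceded by AG, the longer form was at 0.969, 0.972 and 0.983 in WT and at 0.963, 0.975 and 0.966 in MT. In the 5′ region, outside annotated coding sequence, the 26-base exon was at 0.741, 0.812 and 0.785 in WT and at 0.733, 0.806 and 0.727 in MT. The 330-base intron there was at 0.885, 0.821 and 0.979 in WT and at 0.890, 0.724 and 0.820 in MT, with only 115.8 reads and an interval of −0.19 to 0.0069. None of the 27 tested HNRNPC events had libraries that did not overlap.

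**Figure D3:**
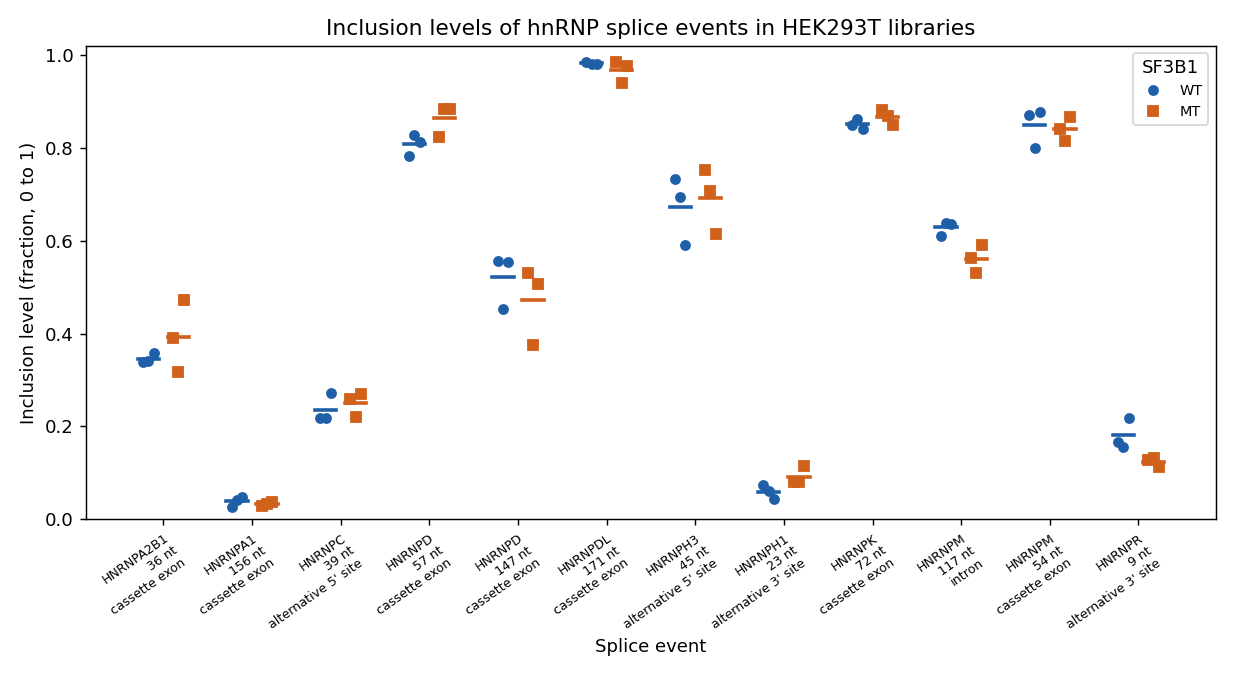
Inclusion level (vertical axis, fraction from 0 to 1) of 12 hnRNP splice events in each HEK293T library, 3 WT (circles) and 3 MT (squares), with a line at each mean. The MT points lie below the WT points for the HNRNPM intron and the HNRNPR 3′ site and above them for the HNRNPH1 3′ site, and they overlap for the other 9 events.

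HNRNPH1 and HNRNPH3, relatives that bind G runs near splice sites, had 42 and 8 tested events. The only hnRNP event with all MT libraries above WT was the longer form of the 23-base 3′ site pair of HNRNPH1, at 0.073, 0.061 and 0.044 in WT and at 0.081, 0.079 and 0.114 in MT. The difference was 0.032 (95% interval −0.012 to 0.076), with an adjusted p by limma of 0.856 and a mean of 250.4 reads. The authors' mean over 6 listed MT values was 0.080, so the difference to WT was smaller there (0.020). The same pair of sites joined to another upstream exon was at 0.037, 0.046 and 0.028 in WT and at 0.036, 0.060 and 0.060 in MT (403.7 reads), where the groups overlapped. A 72-base exon of HNRNPH1 was separated at only 1 of the 3 pairs of neighbouring exons it was measured with, at 0.178, 0.189 and 0.163 in WT and at 0.124, 0.154 and 0.116 in MT with 30.8 reads. With the other neighbours, at 1709 and 958 reads, the exon had means of 1 and 0.998 in WT against 0.9997 and 0.997 in MT, and the groups overlapped. Skipping reads averaged 0 and 1 in WT there, against 22.67 for the separated pair. The 802-base intron of HNRNPH1 (chr5:179616219-179617020) was at 0.293, 0.236 and 0.468 in WT and at 0.462, 0.329 and 0.406 in MT. The 206-base intron (chr5:179621036-179621241) was at 0.124, 0.061 and 0.103 in WT and at 0.101, 0.060 and 0.118 in MT, with 1752.6 reads and an interval of −0.035 to 0.029. The longer form of the 45-base 5′ site pair of HNRNPH3 (chr10:68338643-68338687) was at 0.734, 0.695 and 0.590 in WT and at 0.752, 0.708 and 0.615 in MT, a spread within each genotype wider than the difference of 0.019.

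HNRNPK, which binds C-rich sequences through KH domains, was measured at a 72-base exon, which was at 0.849, 0.863 and 0.841 in WT and at 0.881, 0.870 and 0.850 in MT (2854.3 reads), a difference of 0.016 (95% interval −0.0092 to 0.041). A 44-base exon of HNRNPK was lower in all MT libraries, with means of 0.995 and 0.990. HNRNPDL, the paralog of HNRNPD, had a coding exon that ends up in nearly all transcripts, at a mean of 0.982 in WT and 0.968 in MT (95% interval −0.027 to 0.0029). Its 105-base exon outside coding sequence (chr4:82425563-82425667), present in 3 of its annotated decay transcripts, was at 0.113, 0.085 and 0.081 in WT and at 0.122, 0.060 and 0.113 in MT. All 9 HNRNPK and all 17 HNRNPDL events had intervals within 0.1 of 0.

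**Figure D4:**
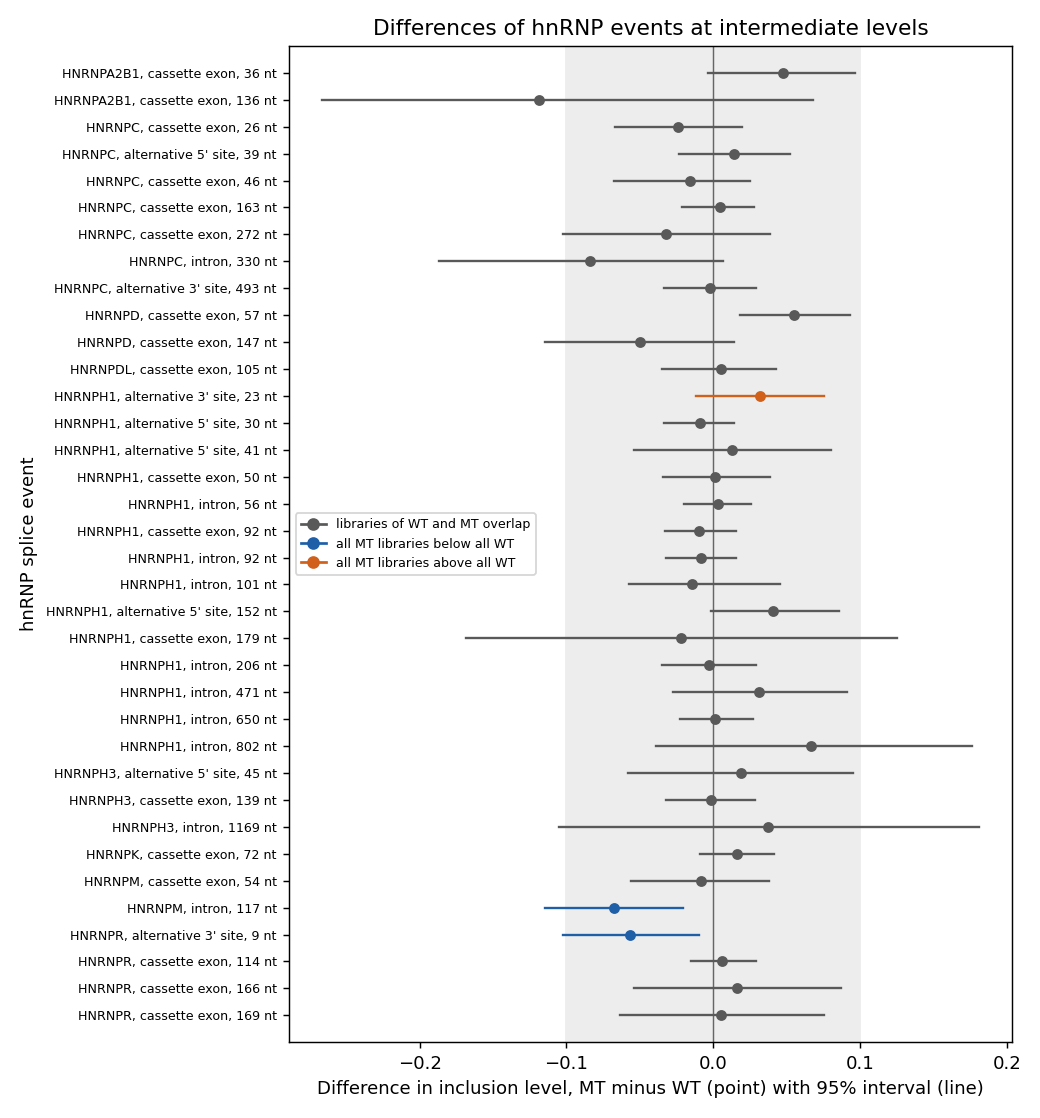
Difference in inclusion level, MT minus WT (horizontal axis, points), with its 95% interval (lines) for the hnRNP events with a mean WT level from 0.05 to 0.95 and at least 50 reads, exon pairs left out, with the range from −0.1 to 0.1 shaded. The intervals of the HNRNPD 57-base exon, the HNRNPM intron and the HNRNPR 3′ site exclude 0, and colour marks the events whose libraries did not overlap.

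By type, the tested hnRNP events were 115 cassette exons, 38 pairs of mutually exclusive exons, 12 alternative 5′ sites, 8 alternative 3′ sites and 11 introns. At intermediate levels, 12 of the 15 alternative segments wholly inside coding sequence of an annotated transcript had a length that is a multiple of 3. Of the 23 other segments, some of which overlap coding sequence in part, 3 did. The exon pairs need care. In 25 of the 38 pairs both exons were also measured as cassette exons, some of them with several pairs of neighbouring exons. In 22 of these 25 the highest WT level of each exon as a cassette exon was above 0.9. A level near the middle therefore need not mean that the exons replace each other. The pair with the most reads, in HNRNPA1 (17780.5 reads), was at 0.415 in WT and 0.405 in MT, while each of its exons was at 0.9997 as a cassette exon in WT.

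The other genes of the family gave the same count. Of 20 further hnRNP or related genes, 16 had tested events, 183 in all, and none was called. 7 of the 183 events (3.83%) had an unadjusted p under 0.05, where 4.47% of all tested events did, 4 of them in CIRBP, a cold-inducible RNA-binding protein. Of these, 2 cassette exon events had equal WT levels (0, 0.057 and 0.088) and nearly equal MT levels, so they may not be separate. The libraries of 3 of the 183 events (1.64%) did not overlap, where those of 5.46% of all tested events did not. The lowest adjusted p by limma was 0.337, for a CIRBP 3′ site event at 1 in all WT libraries and at 0.864, 0.962 and 0.901 in MT (70.8 reads). Of its 8 tested introns, 1 had an unadjusted p under 0.05, at 0.529, 0.757 and 0.587 in WT and at 0.362, 0.560 and 0.480 in MT, where the groups overlapped and the adjusted p by limma was 0.856.

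The label of the cells was checked by reads. Of 6 markers of this line, VIM (up to 3882.2 reads), CDH2 (up to 201.6), KRT18 (117.2) and KRT8 (up to 36) had events of at least 10 reads, while PAX2 reached 3.2 reads and NEFM was not listed. The blood markers PTPRC, CD79A, CD79B, SPI1 and IKZF1 had 0 such events, with at most 1 read.

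In Nalm-6 cells, DRIP peaks were counted over the same 10 gene bodies, as untreated peaks without any overlap with those of the RNaseH1-treated library of the same genotype and number. The WT libraries had 8 and 8 such peaks and the MT libraries 17 and 16, a ratio of 2.06 (two-sided exact permutation p = 0.33, the smallest that 2 against 2 libraries allow). The deposited lists of the MT libraries were longer over the whole genome, with 101372 and 86247 such peaks in WT against 124689 and 151753 in MT, a ratio of 1.47, and depth is not given in the lists. HNRNPC had 3 and 3 peaks in WT against 3 and 4 in MT, and HNRNPM 0 and 0 in WT against 1 and 4 in MT. HNRNPH1 went the other way, with 1 and 1 in WT against 1 and 0 in MT. HNRNPDL and HNRNPH3 had none in any library. Peaks of the RNaseH1-treated libraries over these genes were also more in MT, with 3 and 7 in WT against 10 and 13 in MT, so the treatment left peaks in each library, and the part of this in the ratio was not tested. Whether the ratio over the hnRNP genes differs from that over the genome was not tested.

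**Figure D5:**
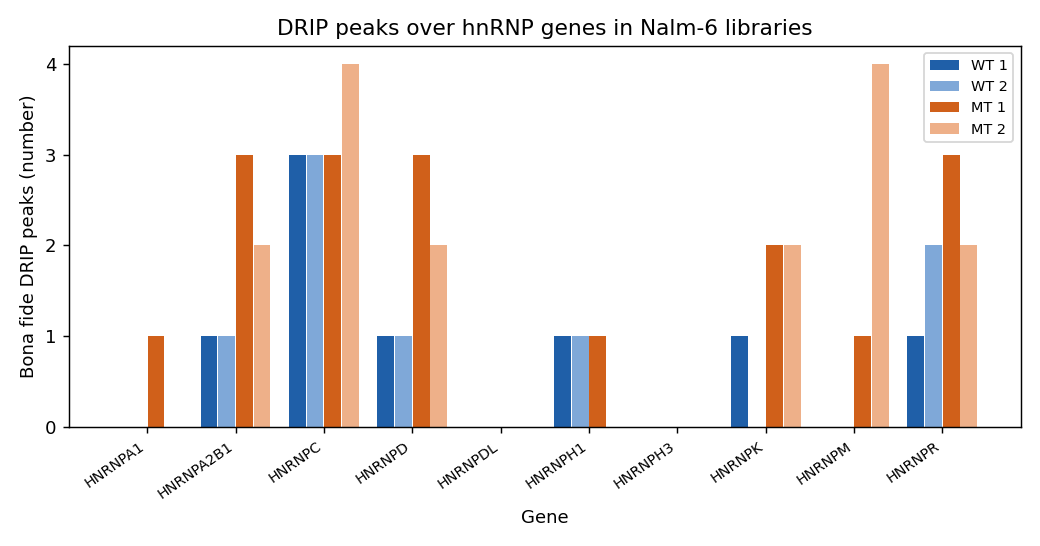
Number of DRIP peaks absent after RNaseH1 treatment (vertical axis) over each of 10 hnRNP gene bodies (horizontal axis) in 2 WT and 2 MT Nalm-6 libraries, 1 bar per library. HNRNPM has bars in MT alone, with 1 and 4 peaks, and HNRNPDL and HNRNPH3 have none.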

How the data were processed

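RNA-Seq reads of 3 WT and 3 MT HEK293T libraries (stranded total RNA) were turned by the authors into a table of splice events, with the rMATS model named in Methods, and the submitters' processing notes name STAR, StringTie and GRCh38. The deposited inclusion level is a fraction that weighs junction reads of either form by its length. Mean reads per group come from the same table, for MT over 6 listed values, and 6 columns of listed per-library values were not used. The test on junction counts that had been planned was not run, because those lists do not match MT values to libraries and some are run together. The numbers of MT 1, MT 2 and MT 3 are those of their columns. The authors' own p-values, adjusted p-values and differences in the table hold their comparison and were not used.

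Levels were compared after an arcsine square root transform with limma 3.58.1 in R 4.3.3, without a replicate block, with a variance trend on the log2 of mean reads plus 1, over the 83581 of 114349 events with a level in all libraries, a mean of at least 10 reads and unequal levels. Intervals are 95% intervals of that fit, mapped back to the level at the mean of both groups, and are approximate. The fit was checked on simulated data. The depth behind a level is its mean junction reads, and library totals are not in the table.

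Events named are, by rule, those called, the event with the most reads of each gene, up to 12 events with at least 50 reads whose groups do not overlap, and events that make known isoforms. The search found 0 cassette exons of 45 bases in HNRNPH3 and 0 of the length looked for in HNRNPM, so a 5′ site pair and an intron of those lengths are given, and events at WT levels from 0.05 to 0.95 were added after their values were seen, as were the 292-base intron of HNRNPA1, the 3-base 3′ sites and the 2 least covered events of HNRNPC, and the 72-base exon and the second 3′ site pair of HNRNPH1, and the same exons measured with other neighbours. Members and lists were chosen with earlier results of these data known. One marker gene and one exon sequence are not reported here.

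DRIP-seq peaks were called by the authors with MACS2 for each library after BWA alignment to GRCh38, and the deposited fold enrichment, a ratio over the local background, was used only in an alternative.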

Additional observations from a re-analysis of the deposited data

How the results depend on the processing

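No hnRNP event was called under any of 13 alternatives, where the number with an unadjusted p under 0.05 ranged from 0 to 12 and the lowest adjusted p by limma from 0.316 to 0.894. The 12, without MT 1, were 6.74%, where 6.09% of all tested events had such a p. The 0, without the variance trend, stood beside 3.83% of all tested events. The events of the other hnRNP genes likewise had 0 calls in each of the 13 alternatives. The count of called events of all genes, 26, depended on the setting: 3 with the logit, 0 without the variance trend (limma, 3200 events with an unadjusted p under 0.05), 12 with the replicate block, from 3 to 13 without 1 library (12 without WT 1 or WT 2, 6 without WT 3, 3 without MT 1, 4 without MT 2 and 13 without MT 3), and 47 when exon pairs were left out, a choice made after seeing the data. The cause was not tested, and the junction count test was not run. With a minimum of 20 reads, no minimum and a difference above 0.05 it was 26, 19 and 29.

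The columns' numbers do not pair the libraries. Over all events the deviations of same-numbered libraries correlated at 0.0997, 0.0974 and 0.0271, and over hnRNP events at 0.418, 0.426 and 0.0738 respectively. Over all events each library correlated best with its own number, a hint from the data and not from the design, while over hnRNP events WT 3 and MT 3 did not. With the replicate block 10 hnRNP events (5.43%) had an unadjusted p under 0.05, where 4.72% of all tested events did, and 0 hnRNP events were called.

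Of 51 named events, 30 kept their direction under each alternative run. In the other 21 the difference crossed 0 without 1 library. In HNRNPA1 the range was from −0.022 to 0.0045 for the exon pair with the most reads. In HNRNPA2B1 the range was from −0.245 to 0.0205 for the 136-base exon. In HNRNPC the range was from −0.0187 to 0.0133 for the 493-base 3′ site and from −0.0112 to 0.0138 for a 163-base exon with a mean WT level of 0.054. In HNRNPD the range was from −0.0082 to 0.028 for the 162-base exon pair. In HNRNPDL the range was from −0.0065 to 0.0245 for the 105-base exon. In HNRNPH1 the range was from −0.0183 to 0.0007 for the 30-base 5′ site, from −0.0132 to 0.0447 for the 41-base 5′ site, from −0.0067 to 0.0128 for the 650-base intron, from −0.0447 to 0.0038 for the 101-base intron, from −0.009 to 0.013 for the 56-base intron, from −0.0205 to 0.0135 for the 206-base intron, from −0.0203 to 0.0152 for the 50-base exon and from −0.0007 to 0.0003 for the exon with the most reads. In HNRNPH3 the range was from −0.0228 to 0.057 for the 45-base 5′ site, from −0.0245 to 0.0798 for the 1169-base intron and from −0.016 to 0.011 for the 139-base exon. In HNRNPM the range was from −0.0332 to 0.0063 for the 54-base exon. In HNRNPR the range was from −0.0013 to 0.0172 for the 114-base exon, from −0.0158 to 0.0462 for the 166-base exon and from −0.0215 to 0.038 for the 169-base exon.

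The HNRNPD 57-base exon ranged from 0.0422 to 0.0748 without 1 library, the HNRNPM intron from −0.0822 to −0.0522 and the HNRNPR 3′ site from −0.069 to −0.0375. The MT over WT ratio of DRIP peaks was 2.87 without the RNaseH1 subtraction, 2.0 for peaks of at least 4-fold enrichment, 1.90 with 3 kb added and from 2.0 to 2.12 without 1 library. For 15 of the 66 events at intermediate levels the depth and spread leave a difference of 0.1 within the interval.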
